A study of Rattus norvegicus with 6 samples.

Results

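The genes described here encode the mitochondrial respiratory chain and ATP synthase. They were chosen by gene name alone, as all symbols that begin with Ndufa, Ndufb, Ndufc, Ndufs or Ndufv, Uqcr, Cox4 to Cox8 or Atp5, the symbols Sdha, Sdhb, Sdhc, Sdhd and Cyc1 (nuclear genome), and all symbols that begin with Mt- (mitochondrial genome). This rule found 96 nuclear and 13 mitochondrially encoded genes among the 28358 genes of the tables, 109 in all. No expression value selected a gene, but the set was proposed with results of this same drug comparison already known. The counts and medians given for it therefore describe the set and are not independent evidence.

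The RNA came from neuroretinas of GK rats (Goto-Kakizaki, a lean strain with inherited type 2 diabetes), all male and 14 months old. Microspheres of PLGA, a degradable polymer, had been injected once into the vitreous in a volume of 5 µL, and retinas were collected 2 months later. In 3 libraries (SP1 to SP3) the microspheres held 6.2 µg of spironolactone, a blocker of the mineralocorticoid receptor, and in the 3 control libraries (NL1 to NL3) they were non-loaded. Whether the libraries came from different animals is not stated, so p-values refer to the variation among these 6 libraries; an uninjected or non-diabetic group was not analysed here.

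As background, the respiratory chain passes electrons from NADH (complex I) and succinate (complex II) through complex III and cytochrome c to oxygen at complex IV, and complex V (ATP synthase) uses the proton gradient so built to make ATP. Complexes I, III, IV and V combine subunits from nuclear genes with subunits encoded in mitochondrial DNA, while complex II is nuclear throughout. Photoreceptors pack mitochondria into the ellipsoid of the inner segment, and the retina is among the tissues with the highest demand for oxygen.

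Libraries held between 9996198 and 12589466 expected counts. Rod markers were abundant in all 6, as the tissue label requires (Gnat1, which encodes rod transducin, at a mean of 7179 TPM, a transcript abundance scaled for gene length and library size). SP1 differed less from NL3 (chi-square of 4.72 per gene) than from SP3 (7.12), and least from SP2. NL3 in turn differed less from SP1 than from NL1 (5.61) or NL2 (5.04), so this measure does not single out SP1. Each result that rests on 1 library is given without it below. The number in the sample title runs from 2 to 4 in controls and from 8 to 11 in treated samples, so its effect and that of the drug cannot be told apart.

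Of the 96 nuclear genes, 83 passed the filter on low counts and entered the test, and all 13 mitochondrial genes did. The 13 that did not pass fall into 3 kinds. Isoforms known from striated muscle or testis (Cox6a2, Cox6b2, Cox7a1, Cox7b2, Cox8b and Cox8c) had at most 11 counts in a library, with Cox7a1 and Cox7b2 listed at 0 throughout. The copies Ndufa10l1, Ndufb4l1 and Cox6c-ps1 were also listed at 0. The subunits Ndufa1, Ndufs6 and Atp5f1 were listed at 0 in all 6 libraries and Ndufa13 had at most 2 counts, although these proteins belong to the complexes of every cell. Cytochrome c, encoded by Cycs, likewise had at most 1 count. For these 5 genes the listed values give no level, and how reads were assigned to them was not tested.

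Scaled for length, mitochondrial transcripts far exceeded the nuclear ones. The 72 tested nuclear subunits had mean levels between 23.3 and 1344 TPM (median 192), and the 13 mitochondrial genes had a median of 10395 TPM and a highest value of 38203 TPM. The most abundant nuclear transcripts were Atp5b (1344 TPM) and Atp5a1 (703 TPM), the beta and alpha subunits that form the catalytic head of ATP synthase, and Cox8a (707 TPM) and Cox6a1 (643 TPM), small subunits of complex IV. Median levels of nuclear subunits were 375 TPM for complex IV and 328 TPM for complex V, against 153 TPM for complex I, 194 TPM for complex II and 176 TPM for complex III.

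Among paralogs, the ubiquitous isoform dominated. Cox4i1 was 6.93 to 9.14 times as abundant (TPM) as Cox4i2, the isoform known from lung and from hypoxic cells, in the 6 libraries. Cox4i2 nevertheless measured 65.2 to 83.0 TPM, so it was clearly expressed. Of the 3 genes for the identical c subunit of ATP synthase, Atp5g3 (359 TPM) and Atp5g2 (335 TPM) exceeded Atp5g1 (143 TPM), and Atp5g3 stood 2.38 to 2.76 times above Atp5g1 in each library. Cox6a1, Cox7a2 (263 TPM) and Cox8a were expressed while their muscle isoforms Cox6a2, Cox7a1 and Cox8b did not exceed 6 counts. Of 9 striated muscle markers 6, among them Ckm, had at most 13 counts, while Myh7 was detected at a mean of 8.35 TPM and Acta1 at 8.08 TPM.

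The mitochondrial genes differed in level although the cell transcribes most of them as 1 long precursor. Mt-atp8 (38203 TPM) and Mt-atp6 (22195 TPM), which share a messenger RNA, and Mt-co2 (18728 TPM) and Mt-co1 (18646 TPM) were the highest. Mt-nd6, the only protein gene on the opposite strand, reached 976 TPM. Mt-nd4 was listed lowest at 89.1 TPM, and its 501 to 771 counts per library stood 38.7 to 51.5 times (TPM) below Mt-nd4l, with which it shares a messenger RNA; how reads were assigned to Mt-nd4 was not tested, so this value is as listed and may not be its level. Mt-atp8 and Mt-nd4l are among the shortest protein genes, and a value per length depends most on the assumed fragment length in such genes. Copies of mitochondrial DNA in the nuclear genome, and pseudogenes of many nuclear members, can also take part of a gene's reads.

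With spironolactone, transcripts of nuclear respiratory chain genes were in part lower, and none was called higher. The nuclear genes together held 0.758%, 0.772% and 0.768% of all counts in the non-loaded libraries and 0.742%, 0.697% and 0.653% in the spironolactone libraries. Every spironolactone library was thus below every non-loaded one, with replicate 3 lowest. The mean share was 0.766% ± 0.00713 in controls and 0.698% ± 0.0445 (SD, n = 3 per group) after the drug. In bulk tissue, fewer cells of a mitochondria-rich type and less RNA per cell cannot be told apart.

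The mitochondrially encoded genes did not follow this. They held 4.75%, 5.35% and 4.85% of counts in the non-loaded libraries and 4.63%, 5.79% and 5.84% in the spironolactone libraries, so the groups overlapped: 2 treated libraries were the highest of all and replicate 1 was the lowest. The ratio of mitochondrial to nuclear counts was 6.26, 6.94 and 6.32 in controls and 6.24, 8.30 and 8.95 after spironolactone. The bar chart of these shares shows both genomes library by library.

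**Figure D1:**
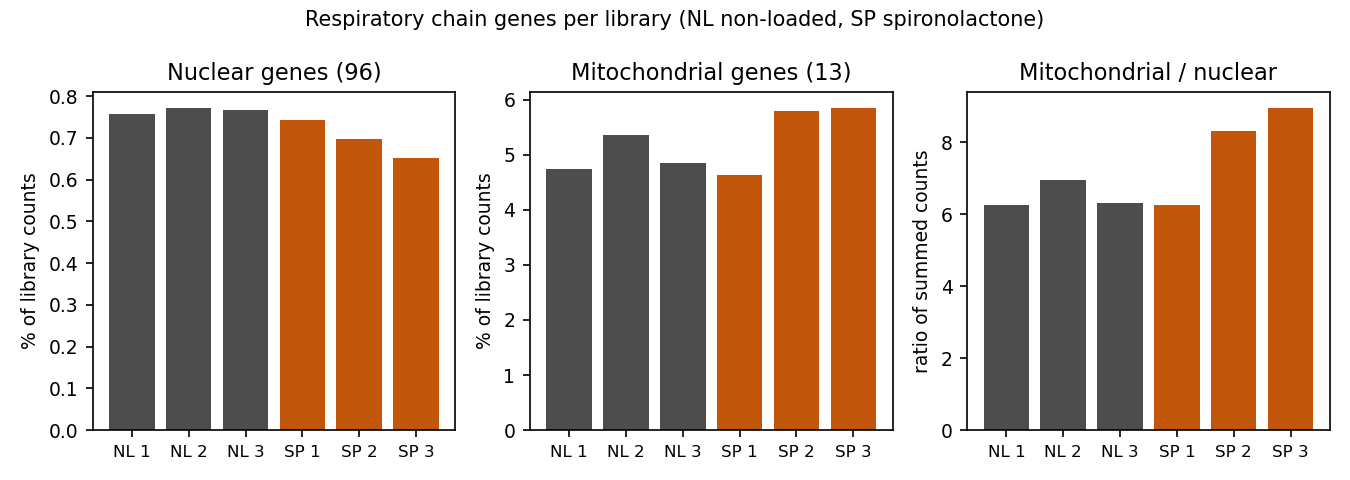
Share of each library's counts held by the 96 nuclear and the 13 mitochondrial genes (percent), and the ratio of their summed counts, for 3 non-loaded (NL, grey) and 3 spironolactone (SP, orange) libraries; each bar is 1 library. The nuclear share is below the controls in all 3 treated libraries, while SP 1 has the lowest mitochondrial share (4.63%) and SP 3 the highest (5.84%).

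Gene by gene, 5 of the 83 tested nuclear genes were called lower and 0 higher (edgeR quasi-likelihood test, Benjamini-Hochberg adjusted over all 13242 tested genes). Over all tested genes 0.763% were called lower and 1.87% higher. At an unadjusted p below 0.05, 27 nuclear members were lower and 1 higher, against 6.32% and 9.52% of all tested genes. Of the 83, 68 had a log2 fold change below 0, against 50.7% of all tested genes. The median was −0.13 over the nuclear members, 0.13 over the mitochondrial genes and 0.00 over all tested genes. In 28 of the 83 nuclear members all 3 spironolactone libraries lay below all 3 controls, and in 2 (Ndufaf4 and Ndufv2) above them, against 9.48% and 11.4% of all tested genes.

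The 5 called genes encode small accessory subunits of complexes IV, V and I. Atp5l, the g subunit in the membrane part of ATP synthase, measured 96.2, 100.3 and 97.5 CPM (counts scaled to library size with TMM factors) in controls and 76.6, 83.5 and 70.5 CPM after spironolactone. Every treated library was lower, and the log2 fold change was −0.35 ± 0.07 (SE, adjusted p = 0.00905, edgeR). Ndufa4, once counted to complex I and now to complex IV, measured 172, 180 and 135 CPM and then 123, 125 and 114 CPM. In NL3 it came close to the treated libraries without overlapping them (−0.42 ± 0.09, adjusted p = 0.0114, edgeR).

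Cox8a, the smallest subunit of complex IV, went from 149, 137 and 143 CPM to 122, 113 and 119 CPM (−0.28 ± 0.06, adjusted p = 0.0179, edgeR). Cox6a1, another nuclear subunit of that complex, went from 150.2, 151 and 147 CPM to 123, 132 and 123 CPM (−0.24 ± 0.06, adjusted p = 0.0311, edgeR). Both had tight and separate groups. Ndufb2, in the membrane arm of complex I, was the least abundant of the 5, at 29.5, 29.9 and 26.8 CPM against 23.8, 21.1 and 20.9 CPM (−0.39 ± 0.10, adjusted p = 0.0444, edgeR).

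Of these 5, Atp5l kept its call under every alternative tried, including each library left out. Cox8a lost its call when NL1 (adjusted p = 0.101) or SP2 (0.145) was left out. Ndufa4 lost it when NL1 (0.0801), NL2 (0.0704), SP2 (0.0694) or SP3 (0.0635) was left out. For Cox6a1 the adjusted p rose to 0.111 on omission of NL1, 0.119 of NL2, 0.0591 of NL3, 0.0754 of SP2 and 0.108 of SP3. For Ndufb2 it rose to 0.162 on omission of NL1, 0.160 of NL2, 0.199 of SP2 and 0.170 of SP3 (all edgeR). On log2(TPM + 1) Atp5l alone passed, and with the length offset described below Atp5l and Ndufa4 did.

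**Figure D2:**
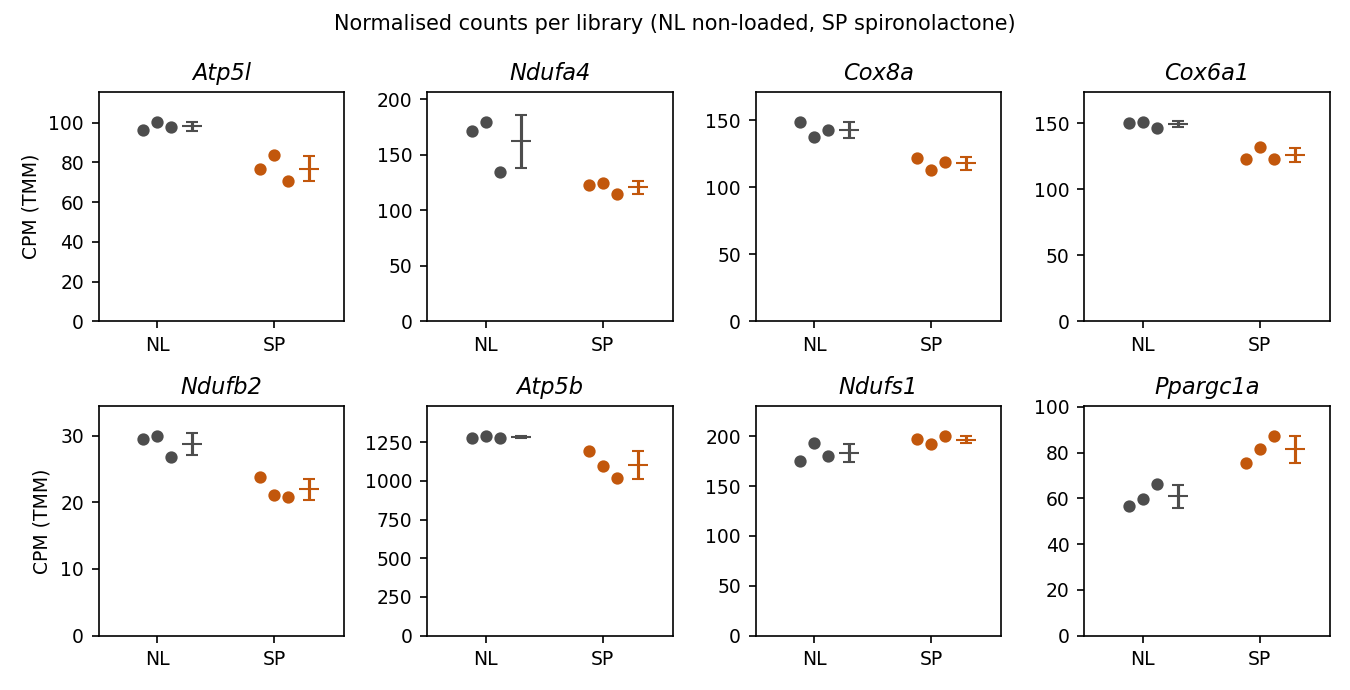
Normalised counts (CPM with TMM factors, axis from 0) of the 5 called genes, of Atp5b, Ndufs1 and the coactivator gene Ppargc1a in 3 non-loaded (NL) and 3 spironolactone (SP) libraries; points are libraries, bars the mean ± SD. The groups are separate in every panel except Ndufs1, where NL2 (193 CPM) reaches the treated range.

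Promoters are shown for 4 of the 5 called genes, all but Cox6a1, since nuclear respiratory genes are known targets of the factors NRF1, GABPA (which binds an ETS motif), YY1 and the estrogen-related receptors (ERR). Each run gives the 250 bases before the annotated start, 5′ to 3′ in the direction of transcription, from RefSeq on build GRCr8, which is not the rn6 build of the counts. Capitals mark matches on either strand to GCGCANGCG (NRF1), CCGGAAG (ETS), AANATGGC (YY1) or NAAGGTCA (ERR), where N is any base; the first motif is nearly its own reverse complement, so 1 site can match on both strands.

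Atp5l (named Atp5mg in RefSeq; chr8:54130408-54130657, minus strand), with 1 NRF1, 1 ETS and 1 ERR match: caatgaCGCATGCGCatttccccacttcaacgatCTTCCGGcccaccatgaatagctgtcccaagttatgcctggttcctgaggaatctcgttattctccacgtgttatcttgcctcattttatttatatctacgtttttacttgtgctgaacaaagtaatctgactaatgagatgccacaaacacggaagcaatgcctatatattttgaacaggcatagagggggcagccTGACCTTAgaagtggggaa
Cox8a (chr1:213833624-213833873, minus strand), with 2 ETS matches: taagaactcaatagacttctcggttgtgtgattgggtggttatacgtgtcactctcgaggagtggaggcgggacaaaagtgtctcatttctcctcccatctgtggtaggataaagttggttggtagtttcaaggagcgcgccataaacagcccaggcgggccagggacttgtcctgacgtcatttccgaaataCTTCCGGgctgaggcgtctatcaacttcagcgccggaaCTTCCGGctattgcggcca
Ndufb2 (chr4:69334057-69334306, plus strand), with 1 ERR match: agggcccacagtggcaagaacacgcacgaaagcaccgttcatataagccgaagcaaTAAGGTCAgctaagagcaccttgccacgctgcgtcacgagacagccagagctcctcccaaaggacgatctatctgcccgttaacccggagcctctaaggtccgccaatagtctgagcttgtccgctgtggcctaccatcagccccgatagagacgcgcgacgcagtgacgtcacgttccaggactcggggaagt
Ndufa4 (chr4:40975560-40975809, minus strand), with no match: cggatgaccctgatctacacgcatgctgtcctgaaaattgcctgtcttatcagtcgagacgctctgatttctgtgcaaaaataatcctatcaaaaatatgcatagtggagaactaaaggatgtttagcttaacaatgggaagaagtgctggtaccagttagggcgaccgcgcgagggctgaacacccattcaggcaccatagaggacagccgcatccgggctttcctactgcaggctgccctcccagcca

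Over the 82 nuclear members with a promoter in the table, the NRF1 motif was present in 20.7%, against 7.19% of 18999 promoters of protein-coding genes. The ETS motif was present in 24.4% against 9.52%, the YY1 motif in 12.2% against 4.27% and the ERR motif in 8.54% against 3.19%. All 4 motifs were more frequent among these promoters than among all, which is a description with no test. The median log2 fold change was −0.02 over the 16 tested members with an NRF1 motif and −0.15 over the 55 without, and −0.25 over the 7 with an ERR motif and −0.11 over the 64 without. For the ETS motif the medians were −0.15 (18 members) and −0.12 (53), and for YY1 −0.10 (9) and −0.14 (62). A match describes letters in this window and not a bound site.

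The complexes differed in how many members were low, as the dot plot by complex shows. They also differed in median transcript length of the tested nuclear subunits: 522 bases for complex IV, 705 for I, 760 for V, 1085 for III and 1184 for II. The part of length or level in the difference between complexes was not tested. In complex IV all 12 tested nuclear subunits had a log2 fold change below 0 (median −0.24), 3 were called (Ndufa4, Cox8a and Cox6a1) and 6 had separate groups. Over all tested genes 0.763% were called lower and 9.48% had separate groups with spironolactone lower. The summed level of the nuclear subunits of complex IV was 5166, 5024 and 4984 TPM in controls and 4674, 4202 and 4021 TPM after spironolactone, without overlap. Cox4i1, a large nuclear subunit near the catalytic core, measured 204, 195 and 202 CPM and then 192, 163 and 153 CPM, and did not pass (−0.24 ± 0.07, adjusted p = 0.0978, edgeR). Its paralog Cox4i2 measured 36.2 ± 3.48 and 34.2 ± 1.42 CPM (−0.09 ± 0.09, adjusted p = 0.712, edgeR).

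Cox7a2, also of complex IV, showed how unlike the treated libraries were. It measured 53.1, 52.9 and 51.2 CPM in controls and 52.2, 36.3 and 29.6 CPM after spironolactone. Replicate 1 lay within the controls and the other 2 far below. The gene did not pass with all libraries (−0.42 ± 0.14, adjusted p = 0.133, edgeR) and passed when SP1 was left out (−0.66, adjusted p = 0.000472) or without a filter (adjusted p = 0.00724).

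Of 14 tested nuclear subunits of complex V, 13 were below 0 (median −0.18), 9 had separate groups and 1, Atp5l, was called. The shares over all tested genes were 9.48% (separate, spironolactone lower) and 0.763% (called lower). The nuclear subunits of complex V summed to 6155, 5996 and 6121 TPM against 5811, 5267 and 4965 TPM. Atp5b measured 1279, 1288 and 1279 CPM in controls, a very narrow range, and 1195, 1097 and 1018 CPM after spironolactone. All treated libraries were lower, yet the gene did not pass (−0.22 ± 0.06, adjusted p = 0.0789, edgeR), although it did with DESeq2 (adjusted p = 0.0152), limma-voom (0.0384), robust shrinkage (0.0363), no filter (0.0273), the length offset (0.0428) and on omission of SP1 (0.0123). Atp5a1 measured 689, 706 and 692 CPM against 648, 614 and 584 CPM (−0.18 ± 0.06, adjusted p = 0.120, edgeR; 0.0402 with DESeq2 and 0.0465 on omission of SP1). Being so abundant, Atp5b and Atp5a1 made up 25.8% and 11.6% of the difference between the groups in summed nuclear CPM.

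Complex I, with 33 tested nuclear subunits, was less uniform: 24 were below 0, 9 above, the median was −0.10, and Ndufb2 was the only call. In 10 of the 33 all treated libraries lay below all controls, and in 1 above them. These shares were 9.48% and 11.4% over all tested genes. At an unadjusted p below 0.05, 10 were lower and 0 higher (edgeR), against 6.32% and 9.52% of all tested genes. The summed level of complex I overlapped between the groups, at 5337, 5362 and 5313 TPM in controls and 5372, 4906 and 4683 TPM after spironolactone, with replicate 1 highest of all. Ndufb8 (87.2 ± 1.07 to 72.6 ± 7.75 CPM, −0.27 ± 0.07, adjusted p = 0.0679, edgeR) was next to pass, and did so on omission of SP1 (0.0118), with robust shrinkage (0.0432) and without a filter (0.0233). The most abundant subunits per length, Ndufb9 (315 TPM) and Ndufb4 (298 TPM), had log2 fold changes of 0.00 ± 0.06 and 0.03 ± 0.08. The 7 core subunits, which carry the flavin and iron-sulfur clusters, had a median of −0.10 and the 26 accessory subunits −0.11. Ndufs1, the largest core subunit, named after its value was seen, measured 175, 193 and 181 CPM and then 197, 193 and 200.1 CPM (0.10 ± 0.06, adjusted p = 0.411, edgeR).

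Complexes II and III had 0 calls in edgeR, 0 also at an unadjusted p below 0.05. All treated libraries lay below all controls for 1 of 4 subunits of complex II and 2 of 9 of complex III. Over all tested genes that share was 9.48%. The 4 subunits of complex II (succinate dehydrogenase) had log2 fold changes between −0.15 and −0.03. Its flavoprotein gene Sdha measured 273 ± 10.1 and 268 ± 9.96 CPM (−0.03 ± 0.06, adjusted p = 0.856, edgeR), Sdhb 99.0 ± 6.62 and 91.7 ± 6.27 CPM (−0.11 ± 0.07), and Sdhd 58.3 ± 3.11 and 52.5 ± 4.14 CPM (−0.15 ± 0.08). Of 9 subunits of complex III 8 were below 0, with a median of −0.12. The Rieske iron-sulfur protein gene Uqcrfs1 measured 103 ± 3.86 and 95.4 ± 4.42 CPM (−0.12 ± 0.06, adjusted p = 0.376, edgeR), Uqcr11 36.1 ± 0.94 and 31.2 ± 5.60 CPM (−0.21 ± 0.11), Uqcrh −0.16 ± 0.09 and Uqcrc1 −0.03 ± 0.07 on the log2 scale. The 7 complex I assembly factors had a median of 0.06. Ndufaf4 was the highest of them, at 30.05, 27.5 and 30.9 CPM against 34.5, 33.4 and 34.8 CPM (0.22 ± 0.09, adjusted p = 0.233, edgeR). Ndufaf6 (−0.32 ± 0.21), Ndufaf5 (0.12 ± 0.10) and Ndufaf3 (−0.02 ± 0.10) did not pass either.

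**Figure D3:**
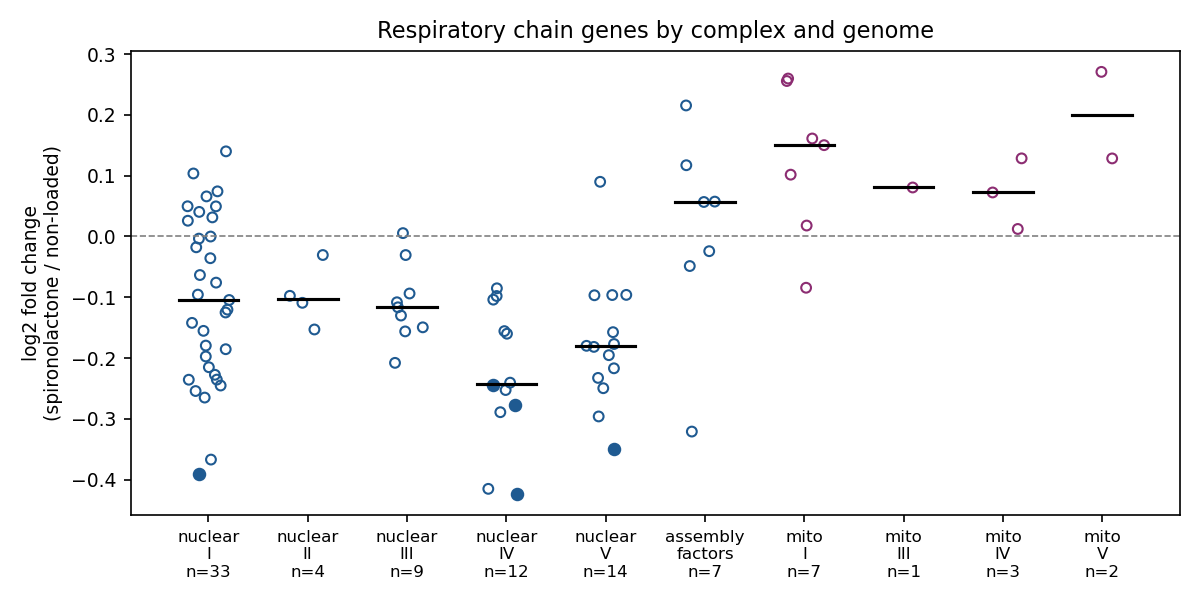
Log2 fold change (spironolactone over non-loaded) of each tested gene by genome and complex; circles are genes (nuclear blue, mitochondrial purple), filled circles have an adjusted p below 0.05, black lines are medians and n is the number of genes. All 12 nuclear subunits of complex IV lie below 0, and 12 of 13 mitochondrial genes lie above 0 with none called.

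For the mitochondrial genome the test called 0 of 13 genes in either direction with edgeR, with 3 higher at an unadjusted p below 0.05; DESeq2 called 0 (0 unadjusted) and limma-voom 0 (3 unadjusted). Over all tested genes 9.52% were higher at an unadjusted p below 0.05 (edgeR). Of the 13, 12 had a log2 fold change above 0, against 6532 of all 13242 tested genes. The libraries of both groups overlapped for all 13. The 13 genes moved together from library to library, as given below, so they are not independent observations. The 3 mitochondrial genes with the smallest p were Mt-nd1, Mt-nd2 and Mt-atp8. Mt-nd1, a membrane subunit of complex I, measured 3542, 4214 and 3568 CPM in controls and 3670, 4854 and 4996 CPM after spironolactone (0.26 ± 0.10, adjusted p = 0.190, edgeR). SP2 and SP3 exceeded every control, while SP1 lay among them. Mt-nd2, another membrane subunit of complex I, measured 4130, 5231 and 4387 CPM and then 4513, 5869 and 6079 CPM (0.26 ± 0.10, adjusted p = 0.198, edgeR). Mt-atp8, in the membrane part of ATP synthase, measured 973, 1175 and 993 CPM and then 965, 1441 and 1384.5 CPM (0.27 ± 0.11, adjusted p = 0.240, edgeR). For Mt-nd2, SP1 was the lowest treated library and lay below NL2. For Mt-atp8, SP1 was the lowest of all 6 libraries, below every control.

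The mitochondrial subunits of complex IV had smaller differences. Mt-co1 measured 13646, 14573 and 13385 CPM and then 12760, 15554 and 15429 CPM (0.07 ± 0.07, adjusted p = 0.698, edgeR). Mt-co2 gave 0.13 ± 0.09 and Mt-cox3 0.01 ± 0.08. Mt-cyb, the only mitochondrial subunit of complex III, gave 0.08 ± 0.08, and Mt-atp6 0.13 ± 0.09. The remaining complex I genes gave 0.16 ± 0.11 (Mt-nd5), 0.15 ± 0.10 (Mt-nd4l), 0.10 ± 0.10 (Mt-nd4) and 0.02 ± 0.08 (Mt-nd3). Mt-nd6 was the only gene below 0 (−0.08 ± 0.15), with 257, 184 and 155 CPM in controls and 157, 168 and 236 CPM after the drug.

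The mitochondrial values differed widely within each group. NL2 was the highest of its group for 12 of the 13 genes, and SP1 the lowest of its group for 12 and the lowest of all 6 libraries for 8. When SP1 was left out, 7 mitochondrial genes were called higher (Mt-nd1, Mt-nd2, Mt-atp8, Mt-nd5, Mt-nd4l, Mt-atp6 and Mt-co2, with log2 fold changes of 0.25 to 0.43, edgeR) and 15 nuclear genes lower. Over all genes tested without SP1, 3.13% were called higher and 1.49% lower, so calls were more frequent throughout. When SP3 was left out, the medians were 0.03 (mitochondrial) and −0.09 (nuclear), and 2 nuclear genes were called. SP3 was the lowest of all 6 libraries for 50 of the 83 nuclear genes. Nuclear calls numbered 1 on omission of NL1 or SP2, 2 on omission of NL2 and 4 on omission of NL3. In these fits 0.224% (SP2 omitted) to 0.658% (NL3 omitted) of all tested genes were called lower.

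**Figure D4:**
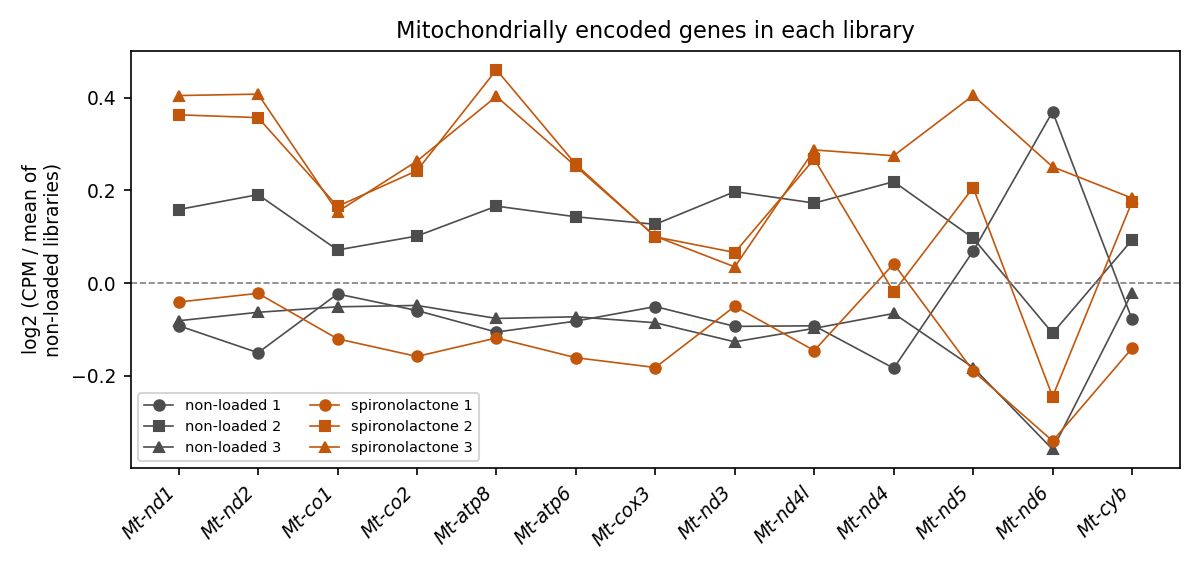
Log2 ratio of each library's CPM to the mean of the 3 non-loaded libraries for the 13 mitochondrial genes, placed in their usual order on mitochondrial DNA; lines only join the genes of 1 library. Spironolactone 2 and 3 run above 0 for most genes, non-loaded 2 also lies above 0 except at Mt-nd6, and spironolactone 1 is the lowest of all 6 libraries for 8 of the 13 genes.

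Transcript length moved with the result. Across the 83 nuclear members, which are mostly short, shorter genes had the lower log2 fold changes (Spearman correlation with length of 0.472, a description across genes of the same libraries). Over all 13242 tested genes it was 0.0968. More abundant members also had lower values (correlation with mean TPM of −0.376, against 0.0222 over all tested genes). Tested genes of at most 500 bases that are no member had a median of −0.07 (214 genes), against −0.24 for the 16 members of that class. Between 500 and 750 bases the medians were −0.05 (411 genes) and −0.15 (24 members), and between 750 and 1000 bases −0.03 (558 genes) and −0.16 (11 members). With a smooth trend of each library against length removed, the nuclear median was −0.09 and the mitochondrial median 0.16, and 3 nuclear genes were called (Atp5l, Ndufa4 and Atp5b). Cytosolic ribosomal protein genes, which are also short and abundant, had 2 of 68 called lower (Rps14, −0.41 ± 0.09, and Rpl9, −0.40 ± 0.09) and a median of −0.09. In that list 80.9% of the genes had a log2 fold change below 0, close to the 81.9% of the nuclear members, and 17 were lower and 0 higher at an unadjusted p below 0.05. All treated libraries lay below all controls in 22.1% of its genes, against 9.48% of all tested genes. Rps14 lost its call when NL1, NL3, SP2 or SP3 was left out (adjusted p of 0.069 to 0.155) and on log2(TPM + 1) (0.157). Rpl9 lost its call on omission of any library but SP1 (0.0513 to 0.214), with robust shrinkage (0.160) and on log2(TPM + 1) (0.223).

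**Figure D5:**
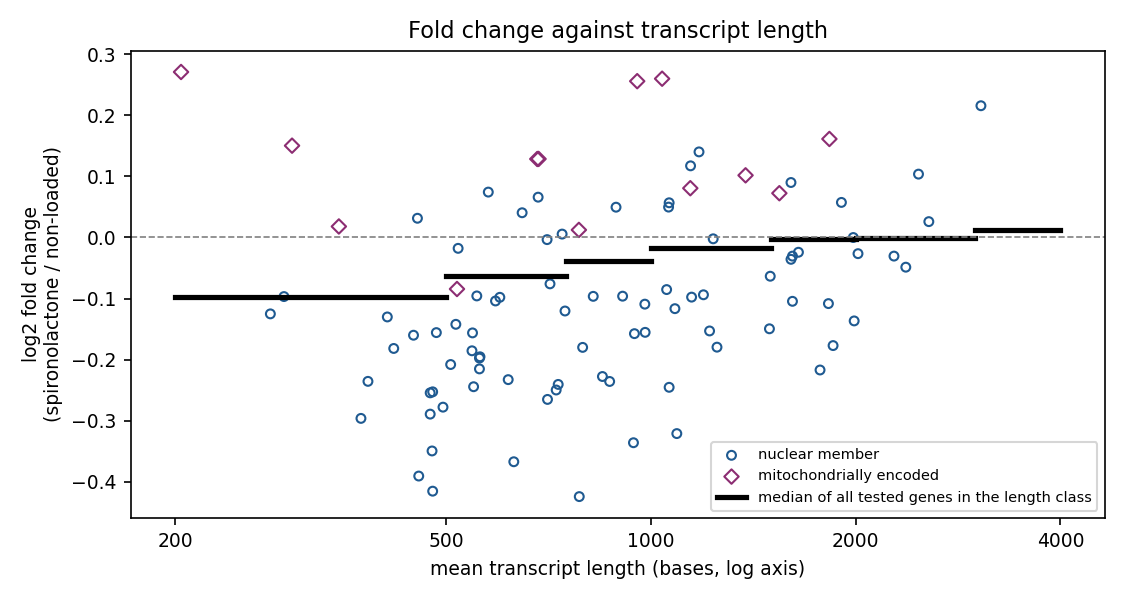
Log2 fold change against mean transcript length (bases, log axis) for the tested nuclear members (blue circles) and mitochondrial genes (purple diamonds); black bars are the median of all tested genes in each length class. Most nuclear members under 1000 bases lie below the bar of their class, while 12 of 13 mitochondrial genes lie above 0 at any length.

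Among the regulators of mitochondrial genes, Ppargc1a, which encodes the coactivator PGC-1alpha, was higher in every treated library: 56.7, 59.6 and 66.4 CPM in controls and 75.6, 81.4 and 87.2 CPM after spironolactone (0.42 ± 0.08, adjusted p = 0.00544, edgeR). It did not pass on omission of SP2 (0.0518), on log2(TPM + 1) (0.0641) or on log2(TPM + 0.1) (0.0655). It was the only call among 17 tested regulators, whose median was 0.04 (4 higher, Ppargc1a included, and 1 lower at an unadjusted p below 0.05, edgeR). The respiratory gene activators Gabpa (70.7 ± 5.90 and 81.5 ± 6.12 CPM, 0.20 ± 0.08, adjusted p = 0.190, edgeR) and Nrf1 (0.08 ± 0.07, adjusted p = 0.646) did not pass. Nor did Tfam, the packaging factor of mitochondrial DNA (23.1 ± 0.79 and 27.2 ± 1.78 CPM, 0.23 ± 0.10, adjusted p = 0.241, edgeR), or Polrmt, the mitochondrial RNA polymerase (−0.04 ± 0.10, adjusted p = 0.912). Of 21 tested genes for transcription and upkeep of mitochondrial DNA 0 were called, with a median of 0.02 (4 higher and 1 lower at an unadjusted p below 0.05, edgeR).

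Other mitochondrial gene lists had 1 call in all. Of 78 tested genes of mitochondrial translation 1 was called, the ribosomal protein gene Mrpl2, which rose (23.8 ± 1.78 to 31.1 ± 2.03 CPM, 0.38 ± 0.10, adjusted p = 0.0447, edgeR) but kept its call on omission of NL3 alone among the 6 libraries (otherwise 0.0691, SP3 omitted, to 0.175, NL1 omitted). With all 6 libraries Mrpl2 also did not pass in edgeR with library totals (adjusted p = 0.0543) or upper quartile factors (0.0510). Nor did it pass with limma-voom (0.0501) or on log2(TPM + 1) (0.0965). The median of the mitochondrial translation list was −0.02. The citrate cycle and pyruvate entry list had 0 of 18 called (median −0.05, with 16 of 18 below 0, and 2 lower unadjusted). The mRNA of citrate synthase, Cs, stood at 151 ± 5.48 and 150.3 ± 6.46 CPM (0.00 ± 0.06, adjusted p = 0.985, edgeR). Enzyme activity and mitochondrial content were not measured in these data. Outer membrane, import and cristae genes had 0 of 26 called (median −0.07; 2 higher and 3 lower unadjusted). Assembly factors of complexes II to V had 0 of 28 (median −0.02; 1 higher and 3 lower unadjusted), further complex I assembly factors 0 of 8 (median 0.00; 1 higher unadjusted), and carriers and supercomplex factors 0 of 8 (median −0.12; 2 lower unadjusted). The summed level of that last list was 1185, 1191 and 1150.3 CPM in controls and 1139, 1054 and 1021 CPM after spironolactone, lower in every treated library, and its median was close to that of the nuclear members.

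Rod markers, taken as a sum, were also lower in every treated library. Of 19 tested, 10 were called lower, against 0.763% of all tested genes, and all 19 were detected. Their summed level was 70373, 70089 and 57456 CPM in controls and 50312, 53390 and 48380 CPM after spironolactone. The order of libraries was not that of the nuclear respiratory chain share. SP1 lay below SP2 in the rod sum but had the highest treated share (0.742%). NL3 was the lowest control in the rod sum but not in that share. The transducin gene Gnat1 gave −0.78 ± 0.11 (adjusted p = 0.000705, edgeR, and 0.162 with robust shrinkage). Pigment epithelium markers, with Tyr and Mlana at 2 counts or fewer, summed to 148, 158 and 132 CPM in controls. After spironolactone they summed to 144, 128 and 75.2 CPM, with SP1 among the controls and SP3 far below. Of 8 tested pigment epithelium markers 0 were called (median −0.28, with 2 lower unadjusted). Cone, bipolar, amacrine and horizontal, ganglion cell, Müller glia and microglia lists had 0 calls (edgeR; 2 higher and 5 lower unadjusted over these 6 lists of 69 tested genes) and medians between −0.11 and 0.04, and the bipolar gene Otx2 was listed at 0. Of endothelial markers 1 of 7 was called higher, and of erythrocyte markers 1 of 2, against 1.87% of all tested genes. Erythrocyte markers summed to 105, 95.7 and 86.4 CPM in controls and 157, 150 and 86.8 CPM after spironolactone, with SP3 among the controls. Muscle (3 tested) and lens (1 tested) markers had 0 calls. The part of rods, pigment epithelium or transcript length in the respiratory chain values was not tested beyond the length offset above.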

How the data were processed

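The expected counts are RSEM estimates that the authors deposited without normalisation, per the file headers; they were rounded for the test. TPM, deposited by the authors and scaled for gene length and library size, gave levels between genes and 2 alternatives. FPKM, deposited by the authors, was not used, and the other deposited columns are gene lengths (mean transcript length, used in the length classes and offset). The submitters' processing notes name FastQC, Trimmomatic, STAR 2.5.3a, RSEM 1.2.28 and rn6; for the annotation version and strand, the answer is not given in the sources used here. Without strand, reads of overlapping genes cannot be told apart.

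Genes were kept by filterByExpr (13242 of 28358) and compared with edgeR 4.0.16 (TMM, glmQLFit, glmQLFTest, two-sided) in R 4.3.3, adjusted by Benjamini-Hochberg over all tested genes at 0.05. The SE is the log2 fold change over the square root of F. Alternatives used limma 3.58.1 and DESeq2 1.42.0. The fit was also run on simulated counts with known changes. The treatment label gave the groups; replicate numbers follow accession order and pair nothing. Members, lists and motifs were chosen with earlier results of these data known; named genes are the 2 most abundant and 2 with the smallest p per complex, all called members, the isoforms, all mitochondrial genes and 7 regulators or markers. Promoters came from RefSeq (GRCr8), matched by symbol or synonym for 95 of 96 nuclear members.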

Additional observations from a re-analysis of the deposited data

How the results depend on the processing

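The number of nuclear members called lower was 5 in the edgeR fit and stayed at 5 or 6 under 4 other scalings, a filter of 1 CPM and limma-voom. It was 8 with DESeq2 and 8 with robust shrinkage, 12 without a filter, 3 with the length offset, 1 on log2(TPM + 1) and 1 on log2(TPM + 0.1), and 13 at a threshold of 0.1. Over all tested genes, 0.763% were called lower in the edgeR fit, 0.861% with robust shrinkage, 0.933% without a filter and 0.891% with the length offset. That share was 0.136% on log2(TPM + 1), 0.121% on log2(TPM + 0.1) and 1.34% at a threshold of 0.1. DESeq2 called 120 genes lower, which was 1.43% of the genes to which it gave an adjusted p. Leaving out 1 library gave 1 to 15 (1 without non-loaded replicate 1 or spironolactone replicate 2, 2 without non-loaded replicate 2 or spironolactone replicate 3, and 15 without spironolactone replicate 1). The share called lower over all genes then ran from 0.224% (without spironolactone replicate 2) to 1.49% (without spironolactone replicate 1). No nuclear member was called higher under any of these settings. Mitochondrial genes called higher numbered 0 except for 3 without a filter, and 0 to 7 when 1 library was left out. Over all tested genes, 439 of 17468 were called higher without a filter, and 3.13% without spironolactone replicate 1. The nuclear median stayed negative (−0.15 to −0.09) and the mitochondrial one positive (0.03 to 0.25) under every setting tried. The mean share of counts changed by −8.89% (nuclear) and 8.84% (mitochondrial), and summed TPM by −10.2% and 11.3%. With 1 library left out, the mitochondrial share changed by 4.61% (without spironolactone replicate 3) to 16.8% (without spironolactone replicate 1), with 5.14% without spironolactone replicate 2, and the nuclear share by −11.8% to −5.99%.

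Of the 50 genes followed through the settings, the sign turned for 9, and none of these 9 passed in any setting. On log2(TPM + 1) and log2(TPM + 0.1), Cs gave 0.0124 and 0.0125 and Ndufb9 0.00844 and 0.00847. With the length offset, Cs gave 0.00172 and Ndufb9 0.0473. With 1 library left out, the lowest and highest log2 fold changes were −0.0397 and 0.0209 for Cs, −0.0318 and 0.0329 for Ndufb9, −0.00621 and 0.0528 for Ndufb4, −0.14 and 0.046 for Polrmt, −0.1001 and 0.0412 for Uqcrc1, −0.0948 and 0.0668 for Ndufaf3, −0.0372 and 0.1004 for Mt-cox3, −0.046 and 0.126 for Mt-nd3, and −0.29 and 0.14 for Mt-nd6. The cause was not tested. No paired analysis was possible because the labels give no replicate numbers that the groups share. A version without mitochondrial ribosomal and transfer RNA genes was not run, since the name rule matched protein genes only. With 3 libraries a group, precision is limited by the spread between libraries.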
